A study of Mus musculus with 9 samples.

Results

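IF1-KO hippocampus was compared with control (CRL) hippocampus on the 6 arrays labelled with these genotypes, 3 IF1-KO and 3 CRL, of the 9 arrays of the series. The other 3 arrays carry IF1-TG mice, which overexpress human IF1, and entered the fits only through the shared estimate of the spread. All were male C57BL/6J mice aged 9 months on regular chow, with 1 mouse per array and 3 mice per genotype. In the IF1-KO mice, exon 3 of *Atpif1* (now also called *Atp5if1*) was flanked by loxP sites and deleted by a Cre recombinase under the *Camk2a* promoter. Because this promoter works mostly in excitatory neurons of the forebrain, glia, vessels and most interneurons of the dissected tissue keep the gene. The floxed line came from a C57BL/6NTac strain, was crossed with a B6;SJL line that expresses the FLP recombinase, and was kept on C57BL/6J. Whether the CRL mice of the arrays carried Cre or floxed alleles is not given in the sources used here.

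IF1 is the small inhibitor protein of the mitochondrial ATP synthase, the rotary enzyme that makes most ATP of a neuron from the proton gradient of the respiratory chain. By binding the catalytic part of the enzyme it blocks ATP hydrolysis and, in part, synthesis, and it thereby changes the membrane potential and the reactive oxygen species that mitochondria release. The hippocampus, which is needed to form new memories, is rich in excitatory neurons with a high demand for ATP.

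RNA was labelled with Cy3 and hybridized to Agilent mouse gene arrays. Each log2 intensity was set against the 75th percentile of its own array and is called signal here, so that a difference of 1 is a 2-fold change. Between 71.9% and 75.6% of spots were well above background on the 6 arrays and 0 spots were saturated. Of 39429 probes, 27993 were detected well above background by every array of 1 genotype or more and were tested, with 21906 gene names. All 10 genes of a hippocampal subfield list (*Prox1* of the dentate gyrus, *Wfs1* and *Fibcd1* of CA1 among them) and all 6 genes of an excitatory neuron list were well above background on all 6 arrays. The mean signal of the excitatory neuron list lay between 2.85 and 2.92 on the IF1-KO arrays and between 2.75 and 3.08 on the CRL arrays. The arrays lay on different slides, each slide being 1 scan: IF1-KO replicate 1 and CRL replicates 1 and 2 on slide 2, and IF1-KO replicates 2 and 3 and CRL replicate 3 on slide 3. Each slide thus held both genotypes, and differences within a slide are given beside the pooled ones. In whole tissue, fewer cells of a type and less RNA per cell cannot be told apart.

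*Atpif1* was reduced on 2 of the 3 arrays labelled IF1-KO. Its signal was 6.44 on the array labelled IF1-KO replicate 1, 5.2 on replicate 2 and 5.53 on replicate 3, against 6.32, 6.34 and 6.19 on the CRL arrays. Replicate 1 thus lay above all CRL arrays, and replicates 2 and 3 below all of them. The signal of replicate 1 goes against its label, and whether the label or an incomplete deletion in that mouse lies behind it was not tested. IF1-KO therefore stands for the label in every mean and direction given here. The difference between IF1-KO and CRL was -0.56 (SE 0.27, unadjusted *P* = 0.0726 from limma). With the array labelled IF1-KO replicate 1 excluded, the difference was -0.92. That array was excluded because its *Atpif1* signal was not reduced, so no *P* value is given for this difference. The difference was 0.11 within slide 2, where that array is the only IF1-KO array. Within slide 3, which does not hold that array, it was -0.83. The gene has 1 probe (NM_007512), on the minus strand of chromosome 4 of mm9 from 132086507 to 132086566. Whether the probe lies in the deleted exon is not settled by the files, so a signal on it does not show by itself that an intact transcript was present.

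The largest difference relative to its error was in *Wdfy1*, which encodes a protein with WD repeats and a FYVE domain that binds a lipid of endosomes. Unlike *Atpif1*, it set all 3 IF1-KO arrays apart from all 3 CRL arrays, replicate 1 included. On its brightest probe, which the array's design assigns to transcript variant 1 (NM_001111279; mm9 chromosome 1, minus strand, from 79698903 to 79698962), the signal was -0.42, -0.69 and -0.56 on the IF1-KO arrays and 1.37, 0.69 and 1.12 on the CRL arrays. The 2 groups did not overlap, and the difference was -1.62 (SE 0.17, unadjusted *P* = 8.67e-06, adjusted *P* = 0.121 from limma). It was -1.45 within slide 2, -1.75 within slide 3, and -1.68 with the array labelled IF1-KO replicate 1 left out. The IF1-TG arrays lay between the groups, at 0.64, 0.66 and 0.62.

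A second probe of variant 1 (from 79699969 to 79700028) gave the same picture, with -3.70, -3.50 and -3.51 on the IF1-KO arrays and -1.89, -2.71 and -2.0 on the CRL arrays (difference -1.37, SE 0.21, unadjusted *P* = 0.000125 from limma). The 2 probes assigned to transcript variant 2 (NM_027057) behaved differently. The one from 79715600 to 79715659 was higher on all 3 arrays labelled IF1-KO, with -5.16, -5.29 and -5.27 against -6.41, -6.61 and -6.62 (difference 1.31, SE 0.14, unadjusted *P* = 7.81e-06 from limma; 1.35 within slide 2 and 1.34 within slide 3), but its difference was 0.30 and no longer past the thresholds after normexp correction with quantile normalization. This probe was well above background on 2 of the 3 CRL arrays. The other, from 79715620 to 79715679, shares 40 of its bases with it and showed no such separation, with -1.92, -1.90 and -2.09 against -2.04, -1.99 and -2.16 (difference 0.09, SE 0.14). The gene therefore appears among the genes called higher and among those called lower. Of the 12 other genes tested within 1 Mb on either side, 0 passed the thresholds, and their differences ran from -0.49 (*Acsl3*, an acyl-CoA synthetase) to 0.15 (*Kcne4*, a potassium channel subunit). *Wdfy1* stands on a list of 9 genes known to vary among the substrains of C57BL/6, and the floxed line began on another substrain than the background strain; whether the mice of the 2 groups differed at this locus for that reason was not tested. The list's best known member, *Nnt*, a mitochondrial transhydrogenase, had a difference of -0.13 (SE 0.19) on its brightest probe.

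**Figure D1:**
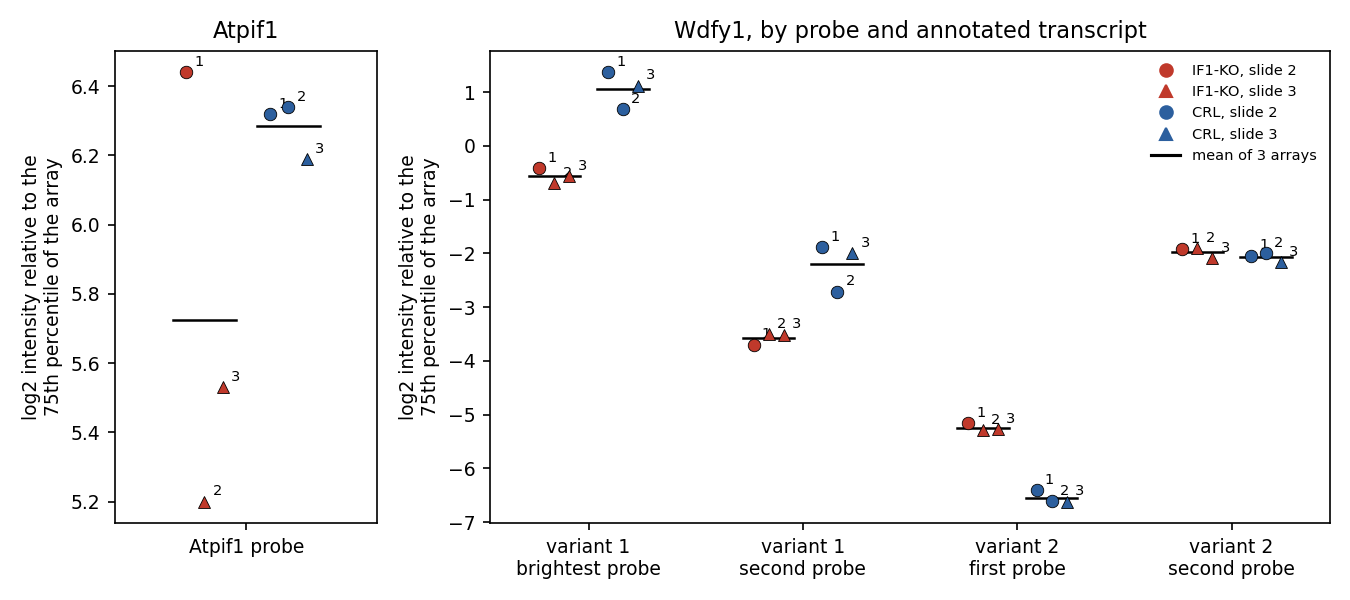
Signal (log2 intensity minus that of each array's 75th percentile, y axis) of the *Atpif1* probe (left) and of the 4 *Wdfy1* probes in genomic order (right) on each array; numbers are replicate numbers, circles slide 2, triangles slide 3, and lines the means of 3 arrays. For *Atpif1* the array labelled IF1-KO replicate 1 sits at 6.44 with the CRL arrays, whereas for *Wdfy1* all 3 IF1-KO arrays sit apart from the CRL arrays on 3 of the 4 probes and together with them on the last.

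Across the array, 295 genes passed a fold change of at least 1.5 together with an unadjusted *P* value below 0.05 in limma, 175 of them higher in IF1-KO mice on at least 1 probe and 121 lower. These are 1.35% of the genes tested (0.799% higher and 0.552% lower). At the unadjusted *P* value alone 707 genes differed, and 0 genes passed when the limma *P* values were adjusted by Benjamini-Hochberg, the smallest being 0.121. The IF1-KO and CRL arrays did not overlap at 192 of the 299 probes called (64.2%), against 7.9% of all probes measured on the 6 arrays, a share that the thresholds themselves raise. The split was 133 higher and 27 lower after normexp background correction with quantile normalization. With the array labelled IF1-KO replicate 1 left out, 463 genes passed (2.11% of those tested; 200 higher and 265 lower) and 0 passed the adjustment, with 882 at the unadjusted *P* value alone. Of these, 164 had also passed with all arrays, 299 had not, and 131 genes that had passed no longer did.

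The count depended on CRL replicate 3 more than on any IF1-KO array. It was 1006 genes (656 higher, 353 lower) without CRL replicate 3, 180 without CRL replicate 1 and 251 without CRL replicate 2, and 263 and 329 without IF1-KO replicates 2 and 3. Over all tested probes measured on every array, CRL replicate 3 correlated most with the IF1-KO arrays of its own slide (*r* = 0.9942 with replicate 3 and 0.9932 with replicate 2), more than with CRL replicates 1 and 2 (0.9879 to 0.9898 among the CRL arrays). When the genes were called without an array and that array was then set against the calls, CRL replicate 3 lay nearer the CRL mean at 100 of 1019 probes (9.81%). The array labelled IF1-KO replicate 1 lay nearer the IF1-KO mean at 154 of 471 probes (32.7%). For the other arrays the share was 50.8% and 49.6% (IF1-KO replicates 2 and 3) and 58.5% and 39.6% (CRL replicates 1 and 2).

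**Figure D2:**
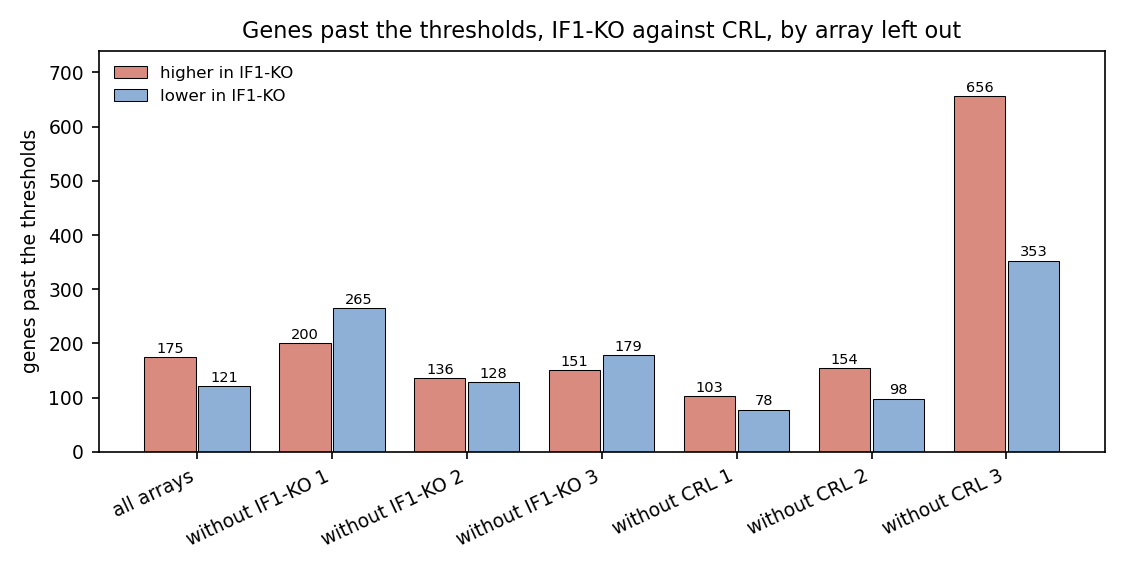
Number of genes past the thresholds (fold change of at least 1.5 and unadjusted *P* below 0.05 from limma; y axis) higher and lower in IF1-KO mice, with all arrays and with each array left out. The bars reach 656 and 353 without CRL replicate 3, against 175 and 121 with all arrays and 200 and 265 when the array labelled IF1-KO replicate 1 is out.

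Genes called higher differed mainly within slide 2. By the brightest probe of each gene, 129 genes were higher and 95 lower. Over the 129, the median difference was 1.05 within slide 2 and 0.26 within slide 3, and 68 had a difference of less than 0.3 in size within slide 3. Over the 95 called lower, the medians were -0.88 and -0.59, and 19 lay under that size. Weak signals gave most of the calls. In the quartile of genes with the lowest mean signal 147 of 5470 passed (2.69%), in the next ones 36 (0.658%) and 28 (0.512%), and in the highest quartile 13 of 5471 (0.238%), all of them higher in IF1-KO mice. Because the calls choose genes that differ over the pooled arrays, these values describe them and test nothing.

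**Figure D3:**
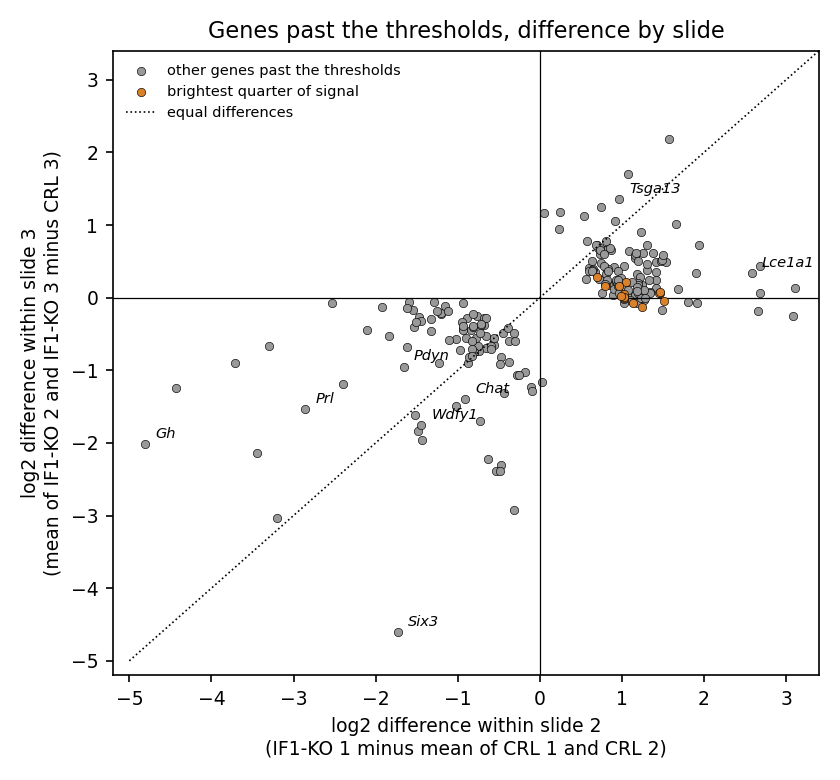
Difference between IF1-KO and CRL (log2) within slide 2 (x axis) and within slide 3 (y axis) for each gene past the thresholds on its brightest probe; orange points are the 13 genes of the highest signal quartile and the dotted line marks equal differences. The orange points lie to the right at about 0 on the y axis, *Gh* and *Prl* lie low on both axes but more so within slide 2, *Six3* more so within slide 3, and *Wdfy1* near the dotted line.

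Pituitary hormone genes were among the genes with the largest decreases. *Gh*, the growth hormone gene, had a signal of -9.22, -9.33 and -8.41 on the IF1-KO arrays, where it was well above background on 0 of 3, and of -4.13, -4.69 and -6.85 on the CRL arrays. All CRL arrays lay above all IF1-KO arrays, CRL replicate 3 least so, and *Gh* was at least 3.60-fold lower in IF1-KO mice. A fold is given as "at least" where no array of the dimmer group measured the probe well above background. On each of those arrays the lowest signal well above background then stood in wherever the probe's own signal was lower. Such a probe was tested only because the brighter group passed the filter, so no *P* value is given for it. The bound holds for the scaling used here and is not a floor under normexp correction with quantile normalization, which adds an offset to every signal. *Prl*, the prolactin gene, had -7.19, -8.05 and -7.88 against -3.78, -4.88 and -6.44, and was at least 4.11-fold lower. After normexp correction with quantile normalization the differences were -1.03 for *Gh* and -0.98 for *Prl*. The IF1-TG arrays were as low as the IF1-KO arrays, from -9.12 to -8.49 for *Gh* and from -8.79 to -8.03 for *Prl*. Of 8 pituitary genes listed, 4 were tested. Of the 4, 2 were lower and 2 higher in IF1-KO mice, and *Pomc* had a difference of 0.52. The mean signal of the 4 ran from -5.56 to -5.25 on the IF1-KO arrays and from -4.54 to -3.30 on the CRL arrays. This mean includes *Gh* and *Prl*, so its separation is not read as a shift of the list. *Gh* and *Prl* were the members past the thresholds (0.552% of all genes were called lower), but both entered the test through the CRL arrays alone, so nothing is read from their count. Whether pituitary RNA in the CRL samples took part in this was not tested.

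*Chat* and *Slc10a4*, both known from cholinergic neurons, were also called lower. *Chat*, which encodes the enzyme that makes acetylcholine, had -6.04, -6.17 and -6.24 on the IF1-KO arrays and -5.05, -5.2 and -4.80 on the CRL arrays. The groups were far apart relative to their spread (difference -1.13, SE 0.19, unadjusted *P* = 0.000256 from limma), in both slides (-0.91 and -1.40). It was -0.50 and not past the fold threshold with normexp background correction and quantile normalization. *Slc10a4*, a vesicle protein of cholinergic and monoaminergic neurons, had -6.60, -7.70 and -7.11 against -5.87, -6.37 and -5.02 (at least 2.25-fold lower). It was well above background on 0 of the IF1-KO arrays, and CRL replicate 3 was the highest array. It did not pass within slide 2 (-0.48) or after normexp correction with quantile normalization (-0.28). Other cholinergic genes, looked up after *Chat* had been seen, did not pass. *Slc18a3*, the vesicular acetylcholine transporter, had a difference of -0.56 (SE 0.29), *Slc5a7*, the choline transporter, 0.06 (SE 0.59), *Ngfr*, a neurotrophin receptor of basal forebrain neurons, -0.03 (SE 0.18), and *Ache*, acetylcholinesterase, 0.36 (SE 0.16). For *Slc18a3* and *Slc5a7*, CRL replicate 3 was the highest of the 6 arrays, at -2.41 and -3.32.

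*Adora2a*, the adenosine receptor of striatal neurons, had -3.94, -4.10 and -4.26 on the IF1-KO arrays and -3.33, -3.61 and -1.87 on the CRL arrays (difference -1.16, SE 0.41, unadjusted *P* = 0.0212 from limma). The difference was -0.47 within slide 2 and -2.30 within slide 3, with CRL replicate 3 standing above the rest. Of the 9 genes of a striatum list, all well above background on all 6 arrays, 8 had a difference below 0 and *Pde10a* one of 0.00, and *Adora2a* alone passed the thresholds. The list's mean signal was 0.34 on CRL replicate 3, against -0.50 and -0.82 on the other CRL arrays and -0.86 to -0.61 on the IF1-KO arrays, and its median difference was -0.31 with all arrays and 0.00 without CRL replicate 3. The part of striatal tissue in these calls was not tested. *Six3*, a homeobox gene of the ventral forebrain, had -6.52, -8.79 and -5.61 against -4.79, -4.80 and -2.59 (difference -2.91), again with CRL replicate 3 highest. It was well above background on 1 of the 3 IF1-KO arrays, so that the size of the difference is uncertain. Its difference was -4.61 within slide 3 and -1.73, not past the thresholds, within slide 2. *Mc3r*, a melanocortin receptor known from the hypothalamus, had -5.45, -5.48 and -4.76 against -4.70, -3.15 and -3.50. Its difference of -1.45 (SE 0.50, unadjusted *P* = 0.0183 from limma) was -1.34 and no longer past the thresholds with the array labelled IF1-KO replicate 1 excluded.

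*Pdyn*, which encodes the precursor of the dynorphin peptides and is expressed in granule cells of the dentate gyrus, was the largest decrease after *Wdfy1* among genes of the 2 brighter quartiles; it was picked after its values had been seen. Its signal was -0.12, 0.90 and 0.69 on the IF1-KO arrays and 1.75, 1.33 and 1.75 on the CRL arrays. The groups did not overlap, and the difference was -1.12 (SE 0.27, unadjusted *P* = 0.00278 from limma), -1.66 within slide 2, -0.95 within slide 3, and -0.81 with the array labelled IF1-KO replicate 1 left out. It passed the thresholds under all 19 alternatives, as did both variant 1 probes of *Wdfy1*. The IF1-TG arrays were also low, at 0.37, 0.12 and 0.59.

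**Figure D4:**
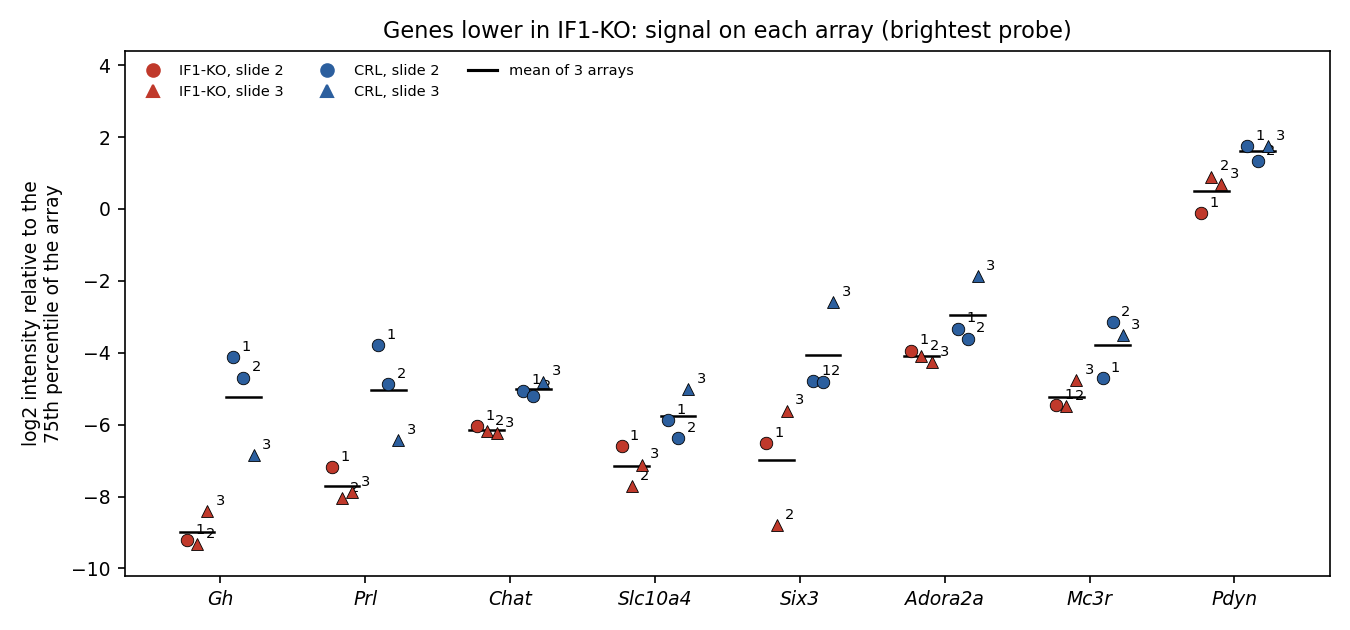
Signal (log2 intensity minus that of each array's 75th percentile, y axis) of 8 genes lower in IF1-KO mice on each array, by their brightest probe; numbers are replicate numbers, circles slide 2, triangles slide 3, and lines the means of 3 arrays. CRL replicate 3 is the lowest CRL array for *Gh* (-6.85) and *Prl* (-6.44) and the highest for *Six3* (-2.59), *Slc10a4* (-5.02) and *Adora2a* (-1.87), whereas for *Chat* and *Pdyn* the CRL arrays lie close together.

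The other large decreases were in weakly expressed genes. E030018B13Rik was at least 3.59-fold and *Gm6432* at least 2.38-fold lower, both well above background on 0 of the IF1-KO arrays. After normexp correction with quantile normalization their differences were -0.81 and -0.63. *Sh3rf2*, a gene of a ring finger protein, had a difference of -1.66, which was -1.33 and not past the thresholds with the array labelled IF1-KO replicate 1 excluded. The noncoding 4831407H17Rik had -1.44. *Sh3rf2* passed under 11 of 18 alternatives and 4831407H17Rik under 10 of 18, with smallest differences of -0.36 and -0.51. Both were well above background on 1 of the 3 IF1-KO arrays. Also named by the rule were *Vmn1r84*, a vomeronasal receptor gene (at least 1.48-fold lower), and the probe A_55_P2100078, which has no gene name. The latter lies on chromosome 14 of mm9 from 11811089 to 11811148, had -9.04, -9.06 and -8.94 against -5.58, -6.10 and -5.95, and was at least 2.28-fold lower. *Vmn1r84* and this probe were well above background on 0 of the IF1-KO arrays, and after normexp correction with quantile normalization their differences were -0.23, not past the thresholds, and -0.66.

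The 10 largest increases had signals below the 75th percentile of the array on all 6 arrays. *Lce1a1*, a gene of the cornified envelope of skin, had -6.47, -7.00 and -6.68 on the IF1-KO arrays and -8.81, -9.30 and -7.18 on the CRL arrays, where it was well above background on 1 of 3 (difference 1.71). CRL replicate 3 lay close to the IF1-KO arrays, and the difference was 2.58 within slide 2 and 0.34 within slide 3. The noncoding 1700030C10Rik (1.55, SE 0.58), *Speer4cos* (1.29, SE 0.38) and 4933405D12Rik (1.10, SE 0.46) showed the same uneven pattern, with 0.44, 0.34 and 0.25 within slide 3, and so did *Trpm4*, a calcium-activated cation channel (1.01, SE 0.33), with 0.25. Of these, 1700030C10Rik and *Speer4cos* were well above background on 1 of the 3 CRL arrays each. 1700030C10Rik (1.16) and 4933405D12Rik (1.17) did not pass with the array labelled IF1-KO replicate 1 excluded. The other 5 had larger differences within slide 3. Groups that did not overlap and the same sign in both slides were conditions for naming all 10. *Tsga13*, a testis gene, had -6.34, -6.44 and -6.26 against -7.36, -7.26 and -7.71 and was at least 1.95-fold higher, being well above background on 0 of the CRL arrays. It did not pass after normexp correction with quantile normalization (0.18). *Nlrp5* and *Nlrp9c*, genes of the NOD-like receptor family known from oocytes, had 1.34 (SE 0.43) and 1.03 (SE 0.32), *Clca3a2*, a chloride channel accessory gene, 1.17 (SE 0.29), and *Pde6a*, the phosphodiesterase of rod photoreceptors, 1.08 (SE 0.30), with within-slide-3 differences from 0.62 to 1.70. *Nlrp5* and *Clca3a2* were well above background on 2 of the 3 CRL arrays. *Nlrp5* passed under 12 of 18 alternatives, and *Clca3a2* and *Pde6a* under 15 of 18 each. Their smallest differences under an alternative were 0.39, 0.42 and 0.51, all under the fold threshold.

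Highly expressed genes called higher were low on CRL replicates 1 and 2, while CRL replicate 3 lay by the IF1-KO arrays. They were picked once their values were known. *Snrpn*, an imprinted gene of a spliceosome protein, had 4.87, 4.94 and 4.78 on the IF1-KO arrays and 4.0, 3.77 and 4.84 on the CRL arrays. Its brightest probe gave 0.66 (SE 0.25), but 0.02 within slide 3, and its other probes gave -0.03 and -0.10. *Npm1*, the nucleolar protein nucleophosmin, gave 0.70 (SE 0.29) on its brightest probe, which the annotation places on chromosome X and which can share sequence with copies of the gene, and -0.37 to -0.01 on its 4 other probes. *Nipsnap1*, a mitochondrial protein, had 2.31, 2.12 and 2.07 against 0.77, 0.92 and 2.02 (0.93, SE 0.31; 0.08 within slide 3). *Cnot8*, a subunit of the complex that removes poly(A) tails, had 1.98, 1.68 and 1.70 against 0.63, 0.31 and 1.74 (0.89, SE 0.32; -0.05 within slide 3). With the array labelled IF1-KO replicate 1 excluded, *Snrpn* (0.66), *Npm1* (0.61) and *Cnot8* (0.80) did not pass. In all 13 genes of this quartile, the difference within slide 3 was less than 0.3 in size. *Golga3*, a Golgi protein, kept the groups apart with 1.62, 1.52 and 1.52 against 0.64, 0.49 and 1.31, and so did *Tfr2*, transferrin receptor 2, in the next quartile, with 0.02, 0.17 and -0.08 against -0.56, -0.97 and -0.40. Their differences of 0.74 (SE 0.20) and 0.68 (SE 0.18) were 0.21 and 0.44 within slide 3.

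Several of the genes that passed only with the array labelled IF1-KO replicate 1 excluded had that array apart from the other IF1-KO arrays, as this way of choosing them favours. *Xlr4b* and *Xlr4a* belong to a cluster of X-linked lymphocyte-regulated genes. *Xlr4b* had -1.69 on replicate 1, the highest of the 6 arrays, -5.72 and -6.13 on replicates 2 and 3, and -4.79, -4.28 and -3.12 on the CRL arrays. Its difference was -0.45 (SE 1.10) with all arrays, -1.86 without replicate 1, 2.85 within slide 2 and -2.81 within slide 3. *Xlr4a* had -3.47 on replicate 1, -7.15 and -9.01 on replicates 2 and 3, and -5.31, -5.39 and -4.41 on the CRL arrays. Its difference was -3.04 without replicate 1 and 1.88 within slide 2, and it was well above background on 1 of the 3 IF1-KO arrays. The 2 probes of *Xlr3b*, a gene of the same family, had differences of -0.77 (SE 0.64) and -0.63 (SE 0.66). *Igfbpl1*, an insulin-like growth factor binding protein gene, had -4.37 on replicate 1, -7.12 and -5.80 on replicates 2 and 3, and -4.28, -4.21 and -3.08 on the CRL arrays (-2.60 without replicate 1). The odorant receptor gene *Olfr984* (-2.65) and the annexin gene *Anxa13* (-1.56) completed the largest decreases called in this way, each well above background on 1 of the 3 IF1-KO arrays. These decreases and the increases that follow are the largest among genes with a RefSeq symbol, and some probes without one had larger differences. The increases were *Stk32c*, a kinase gene, with -4.10 on replicate 1 and -1.44 and -3.08 on replicates 2 and 3 against -4.10, -3.75 and -2.99 (1.36), 1700030L20Rik (1.34), *Htatip2* (1.25), *Necab1*, a calcium-binding protein of neurons (1.21), and D630029K05Rik (1.2), in which replicate 1 (-6.40) lay near replicates 2 and 3 (-5.88 and -5.64). Within slide 2, 1700030L20Rik and *Necab1* had differences of -1.02 and -0.39.

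No subunit gene of the enzyme that IF1 inhibits passed the thresholds. Of 18 ATP synthase genes, 0 were called, against 1.35% of all genes, and their median difference was -0.07 (-0.01 over all genes). They ranged from -0.41 for *Atp5j*, whose spot on the array labelled IF1-KO replicate 1 was an outlier and was dropped, to 0.38 for *Atp5a1*. *Atp5a1*, subunit alpha of the F1 part, had 3.51, 4.58 and 4.56 on the IF1-KO arrays and 3.64, 3.38 and 4.49 on the CRL arrays, so that it followed the slide and not the genotype, with differences of 0.00 within slide 2 and 0.08 within slide 3. *Atp5b*, the catalytic subunit beta, had 6.08, 6.02 and 6.03 against 6.04, 6.15 and 5.91 (difference 0.01, SE 0.11). For that gene a 1.5-fold change would lie many standard errors away, whereas for *Atp5a1* (SE 0.37) it would not.

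For lists of this size a count of 0 or 1 lies near the 1.35% called over all genes, so that these counts set no list apart. Of 37 complex I genes 0 passed (median 0.00, from -0.43 for *Ndufs3* to 0.52 for *Ndufa2*), and of 25 genes of complexes II to IV 0 passed (median 0.00, from -0.36 for *Uqcrfs1* to 0.56 for *Sdhb*). None of the 21 genes of pyruvate dehydrogenase and the citric acid cycle (median 0.02), the 23 of glycolysis and lactate transport (0.03) or the 25 antioxidant genes (-0.02) passed either on any probe. Of 17 genes of mitochondrial biogenesis and dynamics, 15 had a difference below 0 (median -0.16, lowest *Opa1*, the fusion protein of the inner membrane, with -0.43, SE 0.40), and 0 passed. The median stayed at -0.13 with the array labelled IF1-KO replicate 1 excluded. Among 15 genes of the mitochondrial stress response and 77 of the mitochondrial ribosome, 1 each passed, on a dimmer probe only: *Hspe1*, a mitochondrial chaperonin (0.88, SE 0.26; 0.21 within slide 3; -0.09 on its brightest probe), and *Mrpl27* (0.82, SE 0.32; 0.01 within slide 3). With the array labelled IF1-KO replicate 1 excluded, *Mrpl27* did not pass (0.85), and *Mrpl51* of the same list did (0.61). Of 78 cytosolic ribosome and 45 proteasome genes 0 passed, with a median of -0.02 for both. The cytosolic ribosome gene *Rpl23a* (-0.40) passed with the array labelled IF1-KO replicate 1 excluded (-0.68).

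Counts for the synaptic lists also lay near the 1.35% of all genes. Of 23 glutamate receptor genes, 18 had a difference above 0, with a median of 0.06, and 0 passed on the brightest probe. *Grik4*, a kainate receptor subunit rich in CA3, was highest at 0.33 (SE 0.18). *Grm5*, a metabotropic receptor, passed on a dimmer probe, with -0.75, -0.67 and -0.53 against -1.56, -1.62 and -1.01 (0.75, SE 0.21), while its brightest probe gave 0.04 (SE 0.12). Of 12 GABA A receptor genes 9 had a difference below 0 (median -0.15) and 0 passed. Of 26 genes of postsynaptic scaffolds and adhesion, 19 of synaptic vesicles and 25 of calcium handling 0 passed, with medians of 0.04, 0.06 and -0.04. Of 16 immediate early genes, which follow neuronal activity, 0 passed. Their median was -0.07 with all arrays, but -0.29 within slide 2 and 0.48 within slide 3. Of 27 actin cytoskeleton genes *Cfl2*, an actin-severing cofilin, passed on a dimmer probe (0.67, SE 0.29; -0.01 within slide 3), and of 22 interferon and inflammation genes *Isg15*, an interferon-induced ubiquitin-like protein, did so (0.63, SE 0.26). Neither passed with the array labelled IF1-KO replicate 1 excluded (0.52 for both). The medians of these lists were -0.01 and 0.01.

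Of 8 genes that were also assayed by PCR, 0 passed on any probe. They encode the kinases *Camk1d*, *Camk2b* and *Map2k4*, the elongator subunit *Ikbkap*, the RNA-binding protein *Tia1*, the corepressor subunit *Gps2*, cytoplasmic gamma actin (*Actg1*) and a subunit shared by mitochondrial dehydrogenases (*Dld*). Their differences ran from -0.19 (*Camk2b*, SE 0.17) to 0.31 (*Actg1*, SE 0.22), with a median of 0.04. *Actg1* had 6.43, 6.71 and 6.85 on the IF1-KO arrays and 6.34, 6.09 and 6.64 on the CRL arrays, so that the groups overlapped. With standard errors from 0.11 (*Gps2*) to 0.33 (*Camk1d*), a change of 1.5-fold was better resolved for some of these genes than for others.

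Most oligodendrocyte genes had values below 0. Of 15 genes, 13 had a difference below 0, with a median of -0.24 (-0.37 with the array labelled IF1-KO replicate 1 excluded, -0.01 within slide 2 and -0.42 within slide 3), and 0 passed the thresholds. *Mbp*, myelin basic protein, had 2.19, 2.45 and 2.28 against 2.12, 2.35 and 2.33 (0.05, SE 0.17). On a dimmer probe *Mbp* had a difference of 0.36, which passed as an increase with the array labelled IF1-KO replicate 1 excluded (0.80). IF1-KO replicate 2 was the lowest array for the list (1.57, against 1.90 to 2.22 on the other 5), and without it the median was -0.06. Of 13 microglia genes 0 passed (median -0.08). *Ctss*, the lysosomal protease cathepsin S, came nearest, with 2.29, 1.85 and 2.15 against 2.66, 2.85 and 2.49 (-0.57, SE 0.15, unadjusted *P* = 0.00538 from limma), and passed with the array labelled IF1-KO replicate 1 excluded (-0.66). *Prox1* of the hippocampal subfield list (-0.48) also passed with that array excluded (-0.66). The medians of the interneuron, astrocyte and endothelial lists were 0.00, -0.09 and -0.03.

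Choroid plexus and blood genes varied most between mice among the cell type lists. The choroid plexus list, led by *Ttr* (transthyretin), had a mean signal of 1.02 on IF1-KO replicate 3 and 1.29 on CRL replicate 2, against -3.01 to -1.62 on the other 4 arrays. *Ttr* itself had 2.00, 0.25 and 6.44 against 2.60, 6.75 and 0.78 (-0.48, SE 2.08). All 9 genes of the list had a difference below 0 with all arrays (median -0.50), 0 passed, and the median was -2.13 within slide 2 and 0.97 within slide 3. The 4 blood genes had a mean of 3.33 on CRL replicate 2 and lay between -1.52 and 1.13 on the other 5 arrays (median -1.31 within slide 2 and 2.39 within slide 3). The thalamus list gave a median of -0.09 over 7 genes. The part of neighbouring tissue in the differences between the groups was not tested.

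**Figure D5:**
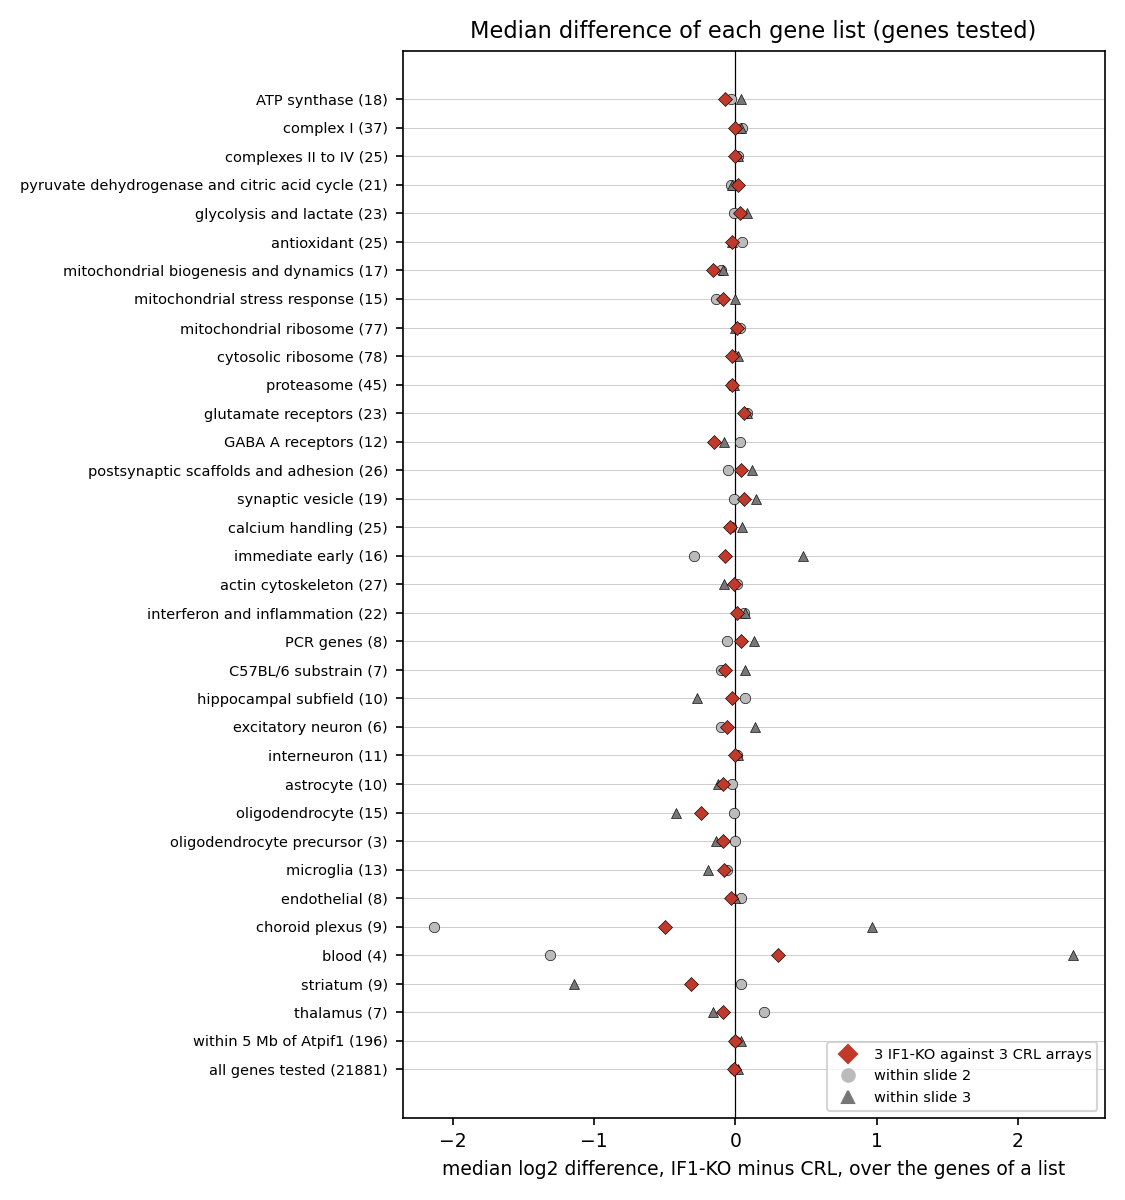
Median difference between IF1-KO and CRL (log2, x axis) over the tested genes of each list except pituitary (number in brackets), with all arrays (diamonds), within slide 2 (circles) and within slide 3 (triangles). The mitochondrial, ribosomal and synaptic lists lie close to 0. Choroid plexus (-2.13 and 0.97), blood (-1.31 and 2.39), striatum (0.04 and -1.14) and immediate early genes (-0.29 and 0.48) change sign between the slides.

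Of 196 genes tested within 5 Mb of the *Atpif1* probe on chromosome 4, 0 were higher and 3 lower past the thresholds on any probe, against 0.799% and 0.552% of all genes, and the median was 0.00. The 3 were *Rhd*, a Rh blood group gene (at least 1.41-fold lower, well above background on 0 of the IF1-KO arrays, and -0.13 after normexp correction with quantile normalization), *Zbtb40*, a zinc finger gene (-0.61, SE 0.25), and, on a dimmer probe, *Luzp1*, a leucine zipper gene (-0.61, SE 0.27). *Zbtb40* had -0.57, 0.19 and 0.30 against 0.72, 0.73 and 0.30. Neither *Zbtb40* nor *Luzp1* passed with the array labelled IF1-KO replicate 1 excluded, and both had a difference of -0.06 within slide 3. *Pef1* (0.85) and *Ptafr* (-0.65) passed on their brightest probes with that array excluded.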

How the data were processed

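The members and the gene lists were chosen with earlier results of these data known. For each array the authors deposited intensity values from Agilent Feature Extraction 10.7, background-subtracted within the array and not normalized between arrays. Genotype, replicate number and age came from the sample labels, and slides from the array files. Processed intensities were scaled to the 75th percentile of their array on the log2 scale. Control and outlier spots were left out, spots of a probe were averaged, and a probe was kept if every array of 1 genotype or more measured it well above background. Genotype means were fitted over all 9 arrays with limma 3.58.1 (lmFit and eBayes, R 4.3.3). A gene passed if 1 probe or more reached a 1.5-fold change with unadjusted *P* below 0.05, the thresholds of the study's methods, and Benjamini-Hochberg values are given beside. Values within a slide came from a fit of genotype-by-slide means. A gene is given by its brightest probe, that of highest mean signal, where no other is named.

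Named are *Atpif1*, the 5 smallest *P*, and the 10 largest increases and decreases with a RefSeq symbol whose groups did not overlap and whose sign was the same in both slides. Also named are the 5 largest increases and decreases with a RefSeq symbol that were called only without IF1-KO replicate 1. Members of lists past the thresholds or at the ends of their range, and PCR genes, are named too. All others, such as *Pdyn*, *Atp5b*, *Mbp* and list members called only with IF1-KO replicate 1 excluded, were picked with their values in view. No set test was run on the lists. Of the gene names tested, 17092 matched RefSeq. The steps were tested on simulated data. Alternatives were another background correction (normexp, offset 50), quantile normalization, median scaling, other filters, slide and replicate blocks, other probe rules, and each array left out. Probe positions are those of the array files, on mm9. Some results are not reported here.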

Additional observations from a re-analysis of the deposited data

How the results depend on the processing

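*Atpif1* had a difference of -0.56 with all arrays and passed the thresholds under 3 of 19 alternatives: within slide 3 (-0.83), with the array labelled IF1-KO replicate 1 excluded (-0.92) and without that array with slide as a block (-0.83, an alternative chosen after seeing the data). All 3 lack the array labelled IF1-KO replicate 1, which was excluded for its *Atpif1* signal, so this passing is not independent support. The difference was 0.11 within slide 2, and from -0.92 to -0.30 when 1 array was left out. The count of 295 genes was 160 (133 higher, 27 lower) with normexp background correction and quantile normalization, 718 with no filter on dim probes, 172 (121 higher, 51 lower) with probes well above background on all 9 arrays, 1160 within slide 2 and 383 within slide 3, and from 180 (without CRL replicate 1) to 1006 (without CRL replicate 3) when 1 array was left out. Quantile normalization, median scaling, slide as a fixed or random block, a fit of the 6 arrays alone, eBayes with trend and robust options, and counting by the brightest probe, the mean of probes or probes kept it within 1.5 times. Genes past the adjustment for multiple testing numbered 0 in limma with all arrays, 1 with a fit of the 6 arrays alone (the probe A_55_P2100078), and from 0 to 2 when 1 array was left out: *Wdfy1* (1 gene) without CRL replicate 2, and *Gh* and the probe A_55_P2111628 (2 in all) without CRL replicate 3. Of these, A_55_P2100078 and *Gh* were well above background on 0 of the IF1-KO arrays and A_55_P2111628 on 1 of the 3 CRL arrays, so that their adjusted values rest in part on signals not above background. A_55_P2100078 and *Gh* also entered the test through the CRL arrays alone, so nothing is read from their passing. Of the 23 genes past the thresholds that were named for the largest increases, the largest decreases or the smallest *P*, 11 still passed with normexp and quantile normalization, 6 passed with probes well above background on all 9 arrays, a filter that leaves no value for a probe it drops, 9 passed within slide 3, and 9 passed with slide as a block and the array labelled IF1-KO replicate 1 excluded. Between 17 and 21 passed when 1 array was left out. These genes were chosen on the same arrays, which favours their passing again, and several entered the test through the brighter group alone. The counts of those 23 genes therefore describe the choice and are not independent support. *Cfl2* (-0.01), *Cnot8* (-0.05) and *Npm1* (-0.13) turned sign within slide 3, with the same values with slide as a block and the array labelled IF1-KO replicate 1 excluded, as did *Slc5a7* (-1.60); *Xlr4b* did so within slide 2 (2.85), as did, without passing the thresholds there, *Xlr4a* (1.88), 1700030L20Rik (-1.02) and *Necab1* (-0.39). The causes were not tested. The replicate numbers do not pair the mice (correlations of deviations 0.12, -0.15 and 0.02), and with the replicate number as a block 324 genes passed, 0 passed the adjustment in limma (726 at the unadjusted *P* alone), 22 of those 23 genes passed and *Atpif1* stayed at -0.56.

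With 3 arrays per genotype, precision is limited by their number. The median SD between arrays was 0.27 (IF1-KO) and 0.30 (CRL) in the quartile of lowest signal and 0.12 and 0.15 in the highest, so that differences at low signal are the least certain. For *Chat* and the dimmer *Wdfy1* probe of variant 2, normexp correction together with quantile normalization was the only alternative run that took the difference below the fold threshold (-0.50 and 0.30); with quantile normalization alone they were -1.14 and 1.35. Normexp without quantile normalization was not run.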
